A study of Mus musculus and Homo sapiens with 15 samples.

Results

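The genes described here are 8 genes that T cells of the gamma-delta and innate-like kinds are known for: Trdc, Cd163l1, Sox13, Blk, Maf, Zbtb16, Il23r and Il17a. They were taken by symbol from the 52340 genes of the W/W table and the 56691 genes of the C57 table, where Cd163l1 carries the symbol Scart1 and was matched by its gene identifier. The 8 were selected on their CPM levels in these same libraries, so their levels and fold changes are given as descriptions, without p-values and with nothing read from their calls. RNA sequencing was done on 9 thymus tumours of W/W mice, which are homozygous for the p53 R282W mutation and carried T-cell lymphomas, all at day 150 after birth. Of these tumours, 3 came from mice given water, 3 from mice given arsenic trioxide (ATO) whose tumours were progressing, and 3 from mice given ATO whose tumours were regressing. A further 4 libraries came from grafted tumours in C57 mice, 2 given phosphate-buffered saline (PBS) and 2 given ATO. All 9 W/W tumours, water controls included, carry the mutation on both alleles. The labels call the graft samples a CDX model with the genotype WT and do not name the grafted cells. Whether a replicate is a separate animal is not stated either, so p-values measure the spread between these samples. The outcome defines the 2 ATO groups of W/W mice, and drug and outcome cannot be told apart in a comparison of either with water.

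Gamma-delta T cells build their antigen receptor from a gamma and a delta chain in place of alpha and beta, and they are made in the thymus from the same early precursors as other T cells. Some of them leave the thymus already able to make the cytokine IL-17A, which recruits neutrophils, and the transcription factors Sox13 and Maf, the kinase Blk and the receptor for IL-23 are known parts of that wiring. Zbtb16 encodes PLZF, the factor that gives invariant natural killer T cells and some gamma-delta T cells their innate-like behaviour. Trdc encodes the constant part of the delta chain, and Cd163l1 encodes SCART1, a scavenger receptor found on gamma-delta T cells.

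For 4 of the 8 genes (Cd163l1, Sox13, Il23r and Il17a) RefSeq gave a start site on GRCm38.p6, and the 250 bases before it were searched for 2 motifs on both strands: AGGTCA, the core half-site of many nuclear receptors, and ACAAAG, the core that SOX and TCF factors share. These motifs do not overlap each other. AGGTCA was found 2 times in the Il23r window (its first base 229 and 66 bases before the start site) and 1 time in the Il17a window (120 bases before the start site), and not in those of Cd163l1 or Sox13. ACAAAG was found in none of the 4. Of 32851 windows of the same length, 14.0% hold AGGTCA and 16.5% hold ACAAAG, and a match is a description of the letters only. The windows of Il17a and Il23r are shown because they hold the nuclear receptor core, and that of Cd163l1 because it had the highest mean of the 8 genes over the water tumours and holds neither. They lie at chr1:20730655-20730904 (Il17a, plus strand), chr6:67491856-67492105 (Il23r, minus strand) and chr7:140218017-140218266 (Cd163l1, plus strand) of GRCm38. Each is written 5′ to 3′ on the strand of its gene, with AGGTCA or its reverse complement in capitals.
Il17a: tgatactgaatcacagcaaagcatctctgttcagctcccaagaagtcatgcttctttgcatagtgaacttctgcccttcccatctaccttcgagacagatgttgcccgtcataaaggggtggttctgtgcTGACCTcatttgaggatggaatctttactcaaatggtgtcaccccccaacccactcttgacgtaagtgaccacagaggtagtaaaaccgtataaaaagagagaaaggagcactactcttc
Il23r: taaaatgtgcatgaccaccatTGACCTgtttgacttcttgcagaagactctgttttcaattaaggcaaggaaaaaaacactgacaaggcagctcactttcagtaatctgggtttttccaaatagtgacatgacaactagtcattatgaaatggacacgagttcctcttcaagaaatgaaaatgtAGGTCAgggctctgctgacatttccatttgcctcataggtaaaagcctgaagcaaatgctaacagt
Cd163l1: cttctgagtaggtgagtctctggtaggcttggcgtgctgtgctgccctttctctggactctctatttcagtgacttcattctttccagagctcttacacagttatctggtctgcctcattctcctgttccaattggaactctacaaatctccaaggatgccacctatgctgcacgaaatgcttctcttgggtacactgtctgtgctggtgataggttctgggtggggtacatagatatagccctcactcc

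Total counts were 12800367 to 17550594 in the W/W libraries and 12922147 to 15637644 in the grafts. Levels are in CPM (each count as its share of the library, on the usual scale of RNA sequencing), scaled by the library size after TMM normalization, a scaling by the bulk of genes. At this depth 3 counts, taken as the floor below which a gene is treated as not measured, amount to 0.184 to 0.253 CPM in a library, so a count of 0 allows a level up to that value, for counting error only. Mitochondrial genes took 2.08% to 8.83% of the counts in W/W libraries and in grafts 0.520% and 1.02% after PBS but 5.98% and 4.03% after ATO. Markers of other cells also differed between groups: the summed level of 11 B-cell markers was 996 to 7570 CPM in water tumours, 107 to 162 in progressing and 1260 to 1680 in regressing ones. The 12 T-cell markers, which include the Cd3 genes besides Trac, Trbc1 and Trbc2, summed to 1930 to 2840 CPM in water tumours. They summed to 3290 to 4830 CPM in progressing and 4240 to 8070 in regressing tumours, and to 3970 to 6540 in the grafts. T-cell RNA was thus present in every library. Cd2 and Cd5 were lower in every progressing than in every water tumour, against the sum. Trac and Cd3d were lower in mean only, with overlap between the groups. The means of Trac were 148.9 CPM in progressing and 271.5 in water tumours. Cd5 had 142.2, 108.8 and 119.6 CPM in water and 12.7, 4.725 and 13.5 in progressing tumours. The 7 thymocyte markers summed to 9.23 to 13.5 CPM in water tumours, 927 to 2030 in progressing and 2640 to 5470 in regressing tumours. Rag1, Rag2, Dntt, Arpp21 and Cd1d2 followed these sums in mean, while Il2ra and Ptcra did not throughout. Il2ra had 8.43, 2.90 and 10.8 CPM in water and 6.46, 1.18 and 5.72 in progressing tumours. Ptcra had 88.6, 2.03 and 29.8 CPM in progressing and 16.5, 19.9 and 11.6 in regressing tumours. In bulk tissue fewer cells of a type and less RNA per cell cannot be told apart, and this holds for every level below.

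The 8 genes did not share a pattern across the tumours. Trdc was high in the 3 regressing tumours and 1 progressing tumour and at or near 0 elsewhere. Cd163l1, Sox13, Zbtb16, Blk, Maf and Il23r had their highest library among the water tumours, although not the same one. Il17a had its highest level in regressing replicate 1. The grafts held Cd163l1, Blk and Maf and lacked any count of Trdc or Il17a.

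**Figure D1:**
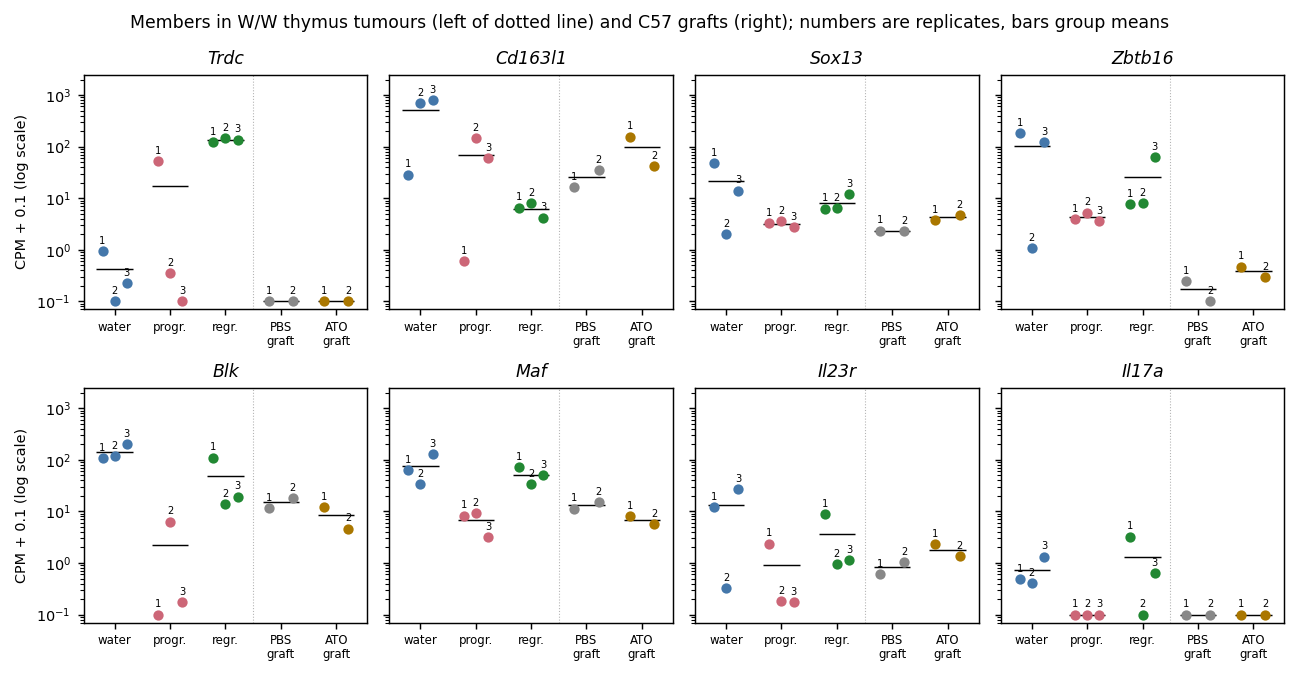
Level of each of the 8 genes in every library, as CPM + 0.1 on a log axis, where 0.1 was added so that libraries with 0 counts can be drawn. Points are libraries, the small numbers are replicates and the bars are group means (n = 3 in W/W groups, n = 2 in graft groups). Trdc is near 124 to 147.6 CPM in all 3 regressing tumours, while Cd163l1 spans 0.492 to 789.7 CPM over the W/W libraries.

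Trdc (ENSMUSG00000104876, GRCm38 chromosome 14, 54142851 to 54148868, plus strand) encodes the delta constant region, which only the delta chain carries. Its level was 0.837, 0 and 0.123 CPM in water replicates 1, 2 and 3, which are 13, 0 and 2 counts. In progressing replicates 1, 2 and 3 it was 51.5, 0.253 and 0 CPM, or 838, 3 and 0 counts. Regressing replicates 1, 2 and 3 had 124, 147.6 and 136.1 CPM, or 2008, 2094 and 2069 counts. The regressing tumours therefore lay within a narrow band of 135.9 ± 11.8 CPM (SD, n = 3), above every other library. A single tumour carried the progressing mean of 17.3 ± 29.7 CPM (n = 3): with progressing replicate 1 left out, the fitted log2 fold change of progressing against water went from 5.69 to -1.39. The water mean rests on the 13 counts of water replicate 1, the other 2 libraries holding 0 and 2 counts: the fitted log2 fold change of regressing against water was 8.66, and 10.81 without that library. Regressing against progressing was 2.97, and 10.05 without progressing replicate 1. All 4 grafts had 0 counts, which is no more than 0.197 to 0.221 CPM.

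Beside the level of Trdc, markers of thymic epithelium, the stroma in which T cells develop, summed to 1130 to 1320 CPM in regressing tumours, 85.1 to 740 in water and 23.2 to 77.8 in progressing tumours. In progressing replicate 1, which held Trdc at 51.5 CPM, that sum was 26.2 CPM. Prss16 alone gave 892, 800 and 683.4 CPM of the sums of regressing replicates 1, 2 and 3, and 6.21 CPM in water replicate 3. In that water tumour Krt5 (435 CPM), Epcam (127.3 CPM) and Foxn1 (16.3 CPM) were above every regressing tumour, and Krt8 (154.3 CPM) was below. Psmb11 had 0.615 CPM in water replicate 3 and 67.8 CPM in regressing replicate 1. The sums therefore rest on different genes. The part of other cells in the level of Trdc was not tested. Trdc also shares exonic sequence with Trdv5, a delta variable segment on the opposite strand, over 207 of the 438 exonic bases of Trdv5, and with Gm43434 over 96 bases. Since the counting is not stated to use strand, reads of Trdc and Trdv5 cannot be fully told apart.

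Cd163l1 (ENSMUSG00000025461, chromosome 7, 140218267 to 140231145, plus strand) had 28.5, 686.4 and 789.7 CPM in water replicates 1, 2 and 3. Progressing replicates had 0.492, 147.6 and 58.8 CPM, and regressing replicates 6.49, 7.96 and 4.08 CPM. Water tumours were thus spread 501.5 ± 413 CPM (SD, n = 3), progressing ones 68.9 ± 74.1 (n = 3) and regressing ones 6.18 ± 1.96 (n = 3). The lowest water tumour was above the highest regressing one, but 2 progressing tumours lay above that water tumour. In mean, regressing tumours were 81.2-fold below water, the opposite direction to Trdc. Grafts had 16.4 and 34.7 CPM after PBS and 156.4 and 41.2 CPM after ATO, and the groups did not overlap. Their fitted log2 fold change was 1.95 with all 4 libraries and 0.68 without ATO replicate 1.

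Sox13, a transcription factor of the SOX group that marks gamma-delta precursors (ENSMUSG00000070643, chromosome 1, 133382303 to 133424377, minus strand), had counts in every library. It had 47.7, 1.91 and 13.9 CPM in water replicates 1, 2 and 3, then 3.14, 3.54 and 2.64 CPM in progressing and 6.18, 6.20 and 11.9 CPM in regressing tumours. Regressing and progressing tumours did not overlap, and water tumours overlapped both. The fitted log2 fold change of regressing against water, -1.39, was 0.04 without water replicate 1. In grafts it had 2.25 and 2.21 CPM after PBS and 3.68 and 4.66 CPM after ATO.

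Zbtb16 (ENSMUSG00000066687, chromosome 9, 48654297 to 48836222, minus strand) followed Sox13 in which water tumours were high. Water replicates 1, 2 and 3 had 182.6, 0.991 and 121.6 CPM, so water replicate 2 lay below all 6 ATO-treated tumours. Progressing tumours had 3.81, 5.15 and 3.52 CPM. Regressing tumours had 7.66, 7.82 and 62.8 CPM, all above the progressing ones, with replicate 3 far above the other 2. The fitted log2 fold change of regressing against progressing was 2.65, and over fits that each left out 1 library it ran from 0.98 to 3.10. Grafts had 0.145 and 0 CPM after PBS and 0.368 and 0.197 CPM after ATO, at most 5 counts in any library.

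Maf (ENSMUSG00000055435, chromosome 8, 115682942 to 115707794, minus strand), a factor needed for IL-17-producing gamma-delta T cells and also made by macrophages and helper T cells, separated the progressing tumours. It had 63.3, 33.3 and 130.8 CPM in water, 8.24, 9.03 and 3.08 CPM in progressing and 71.6, 34.4 and 49.8 CPM in regressing tumours. Every progressing tumour was below every water and every regressing tumour, while water and regressing tumours overlapped. Fitted log2 fold changes were -3.48 for progressing against water and 2.93 for regressing against progressing, and they ran from -3.81 to -2.84 and from 2.58 to 3.22 when each library was left out in turn. Maf shares 440 exonic bases with Gm15655 on the opposite strand. The 12 macrophage markers summed to 1770 to 2610 CPM in water, 348 to 1510 in progressing and 598 to 1030 in regressing tumours. Members of that list differed in order. Csf1r had 88.8, 158.5 and 94.3 CPM in water, 29.2, 46.7 and 11.8 in progressing and 70.3, 39.5 and 80.4 in regressing tumours. Cd14 had 2.90, 19.5 and 9.90 CPM in water, 20.1, 25.9 and 26.5 in progressing and 4.88, 4.23 and 8.29 in regressing tumours. In grafts Maf was 11.2 and 15.2 CPM after PBS and 8.02 and 5.51 CPM after ATO, beside macrophage sums of 694 to 927 and 371 to 414 CPM. The part of macrophages in the level of Maf was not tested.

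Blk (ENSMUSG00000014453, chromosome 14, 63372836 to 63417037, minus strand) encodes a Src-family kinase of B cells that IL-17-producing gamma-delta T cells also need. Water replicates 1, 2 and 3 had 106.6, 119.9 and 202.3 CPM. Progressing replicates had 0, 6.24 and 0.0733 CPM, which are 74 counts in replicate 2 and at most 1 in the others. Regressing replicates had 111.2, 13.95 and 19.3 CPM. All progressing tumours were below all others, and regressing replicate 1 alone reached the range of water. The fitted log2 fold change of progressing against water was -6.12, and -11.66 without progressing replicate 2. That of regressing against water was -1.57, and -3.09 without regressing replicate 1. B-cell markers moved with Blk in part: their sum was lowest in progressing tumours (107 to 162 CPM), as was Blk. Within the water group the order differed, since water replicate 3 had the most Blk and the smallest B-cell sum, 996 CPM. Ighm alone gave 891 CPM of that sum. Grafts had 11.6 and 18.2 CPM of Blk after PBS and 12.0 and 4.53 CPM after ATO, with B-cell sums of 155 to 235 and 111 to 167 CPM and the B-cell marker Ms4a1 at 0 in both ATO grafts. The part of B cells in the level of Blk was not tested.

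Il23r (ENSMUSG00000049093, chromosome 6, 67422932 to 67491855, minus strand) encodes the IL-23-binding chain of the receptor that sustains IL-17-producing cells. It had 12.0, 0.229 and 26.8 CPM in water replicates 1, 2 and 3, 2.28, 0.0844 and 0.0733 CPM in progressing and 8.77, 0.846 and 1.05 CPM in regressing tumours. Each group held libraries at or below 1.05 CPM, and the 3 groups overlapped. The fitted log2 fold change of regressing against progressing was 2.09, and 0.20 without regressing replicate 1. Grafts had 0.509 and 0.939 CPM after PBS and 2.21 and 1.25 CPM after ATO.

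Il17a (ENSMUSG00000025929, chromosome 1, 20730905 to 20734496, plus strand), the cytokine itself, was near the limit of detection. It had 6, 4 and 20 counts in water tumours (0.386, 0.305 and 1.23 CPM), 0 in each progressing tumour, and 51, 0 and 8 counts in regressing tumours (3.15, 0 and 0.526 CPM). It did not pass the filter on low counts in either table. Of all W/W counts of Il17a, scaled as CPM, 56.3% came from regressing replicate 1. In the progressing tumours its mean was at least 2.92-fold below that of water tumours, taking the floor of 3 counts in each library. No graft held a count of it.

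In regressing replicate 1, Blk (111.2 CPM), Il23r (8.77 CPM) and Il17a (3.15 CPM) each exceeded the other 2 regressing tumours, whereas Trdc was lower there than in either of them and Zbtb16 was highest in replicate 3. Water replicate 2 had the lowest Sox13, Zbtb16, Maf and Il23r of its group beside Cd163l1 at 686.4 CPM. That library had a B-cell marker sum of 7570 CPM and a natural killer cell marker sum of 623 CPM, the highest among the W/W libraries for both lists, and a TMM factor of 0.747. Gzma alone gave 607.8 CPM of the natural killer cell sum. As a measure of likeness between members, the mean absolute difference of centred log2(CPM + 1) was taken over the 9 W/W libraries. It was smallest for Sox13 and Il17a at 0.91, Sox13 and Zbtb16 at 1.00, and, both at 1.01, Maf and Il23r and Sox13 and Il23r, and largest for Trdc and Cd163l1 at 5.75. All members share the same libraries and depth in this measure, and a gene that varies little is close to many others by it.

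A fit over all genes gives the background for the members. Of the 18119 genes tested in the W/W table by edgeR's quasi-likelihood test (Benjamini-Hochberg adjusted p under 0.05), 3.13% were called higher and 4.57% lower in regressing than in water tumours. Of the 7 members that passed the filter on low counts there, all but Il17a, 1 was called higher (Trdc) and 1 lower (Cd163l1). In progressing against water, 4.77% of all genes were called higher and 7.13% lower, and among the members none higher and 2 lower (Blk and Maf). In regressing against progressing, 6.45% of all genes were called higher and 6.18% lower, and among the members 1 higher (Maf) and none lower. In the grafts, where 15468 genes were tested, 7.37% were called higher and 6.57% lower after ATO. Of the 5 members that passed the filter there, 1 was called higher (Cd163l1) and none lower, while Trdc, Zbtb16 and Il17a were filtered out for low counts. Because these contrasts were known when the members were chosen, nothing is read from the counts. The W/W comparisons with water share the same 3 water tumours.

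The constant genes of all 4 receptor chains were set side by side per length, as CPM per kilobase of exonic length. In regressing tumours Trdc had 32.1, 38.2 and 35.2 CPM per kilobase, beside 308.7, 289.4 and 149.8 of Trac, the alpha constant gene. Delta message was thus below alpha message in each of them, by a margin that depends on the 3865 exonic bases by which Trdc is divided. Before that division Trdc had 124, 147.6 and 136.1 CPM there, and Trac 288.6, 270.6 and 140 CPM. In progressing replicate 1 Trdc had 13.3 and Trac 50.8 CPM per kilobase, the lowest Trac of the 9 W/W tumours. Before division by length the order there was reversed, with Trdc at 51.5 and Trac at 47.5 CPM. Trbc1 and Trbc2, the beta constant genes, were far above both in regressing tumours, with means of 1259 and 1516 CPM per kilobase. The gamma constant gene Trgc2 had 191, 6.76 and 225 CPM per kilobase in water replicates 1, 2 and 3, where Trdc was at 0.217 or less, against 13.1, 6.46 and 21.4 in progressing and 76.4, 77.4 and 66.1 in regressing tumours.

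In the grafts gamma message was present without delta message. Trgc1 ranged there from 200.1 to 435.6 CPM per kilobase, Trgc2 from 263.6 to 458.0, and the means of Trgc4 were 197.6 after PBS and 218.2 after ATO, while Trdc had 0 counts in all 4. Trac had means of 313.8 and 447.0 CPM per kilobase and Trbc2 of 2692 and 1688 after PBS and ATO. Trbc1 had only 0.642 and 0.530, so the beta message of the grafts was nearly all from Trbc2. No gamma constant gene passed the test in the graft comparison, although Trgc1 passed it without ATO replicate 2 (log2 fold change 0.83, adjusted p = 0.0204 by edgeR). Grafts and W/W tumours are in separately normalized tables on different genome builds, so levels across them are set side by side only. Trgc1, Trgc2 and Trgc3 are near-identical copies, and their reads may have been divided between them in counting.

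**Figure D2:**
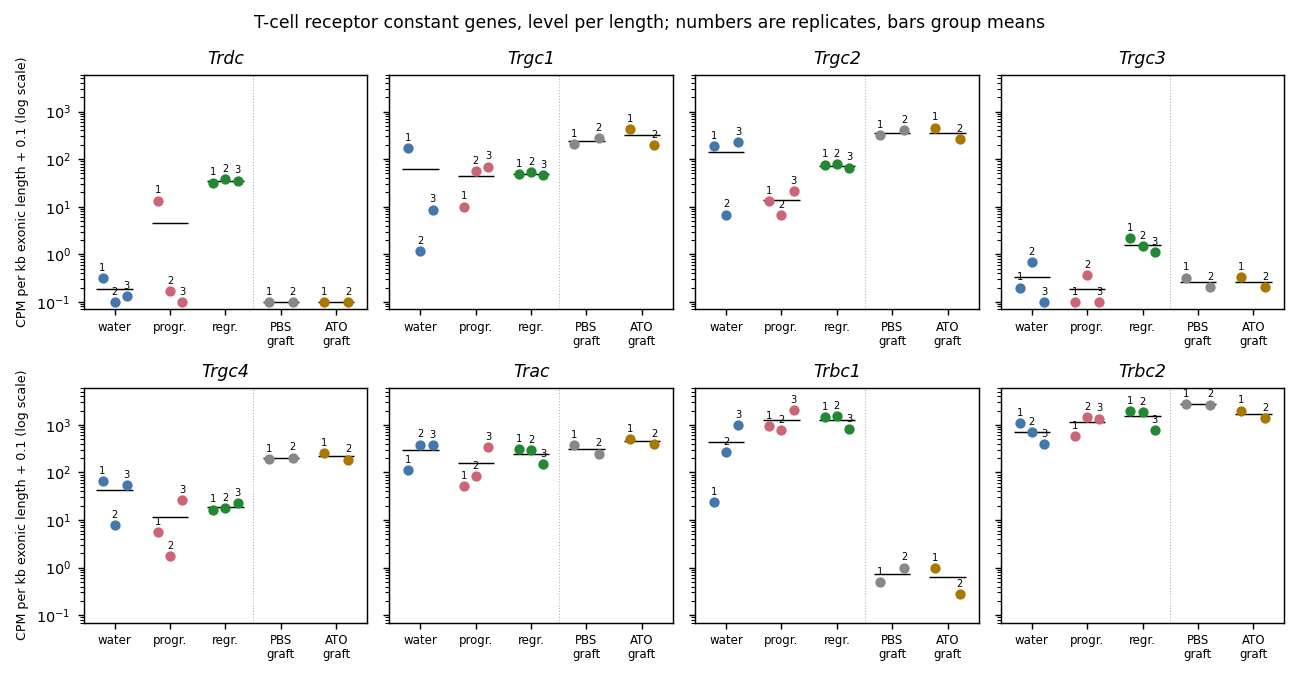
Receptor constant genes in every library, as CPM per kilobase of exonic length + 0.1 on a log axis; points are libraries, small numbers are replicates and bars are group means (n = 3 in W/W groups, n = 2 in graft groups). Trdc stands between 32.1 and 38.2 in regressing tumours and at 0 in the grafts, where Trgc1, Trgc2 and Trgc4 are high and Trbc1 is near 0.

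A further 83 genes in 4 lists give the surroundings of the 8: receptor segments, transcription factors of gamma-delta specification, IL-17-type genes and innate-like T-cell genes. In progressing against water, 35 of the 72 genes tested passed edgeR's test, 6 higher and 29 lower, and the median log2 fold change of all 72 was -1.33. In regressing against water 9 rose and 6 fell, with a median of -0.58. All 16 that passed in regressing against progressing were higher in regressing tumours, with a median of 1.29. In the grafts 2 of 57 rose after ATO and 2 fell, with a median of 0.03. The medians over all genes were -0.04, -0.11, -0.07 and 0.04 in the same order. All genes rose and fell in shares of 4.77% and 7.13%, 3.13% and 4.57%, 6.45% and 6.18%, and 7.37% and 6.57%, and the graft share of the lists was 7.02% with both directions together. Single libraries moved some of these counts by more than 1.5 times. The count for regressing against water was 1 to 9 without any one of regressing replicates 1, 2 or 3 or water replicates 1 or 3. For regressing against progressing it was 3 to 10 without any one of progressing replicates 1 or 3 or the 3 regressing replicates, for progressing against water 19 without progressing replicate 3, and for the grafts 12 without ATO replicate 1.

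**Figure D3:**
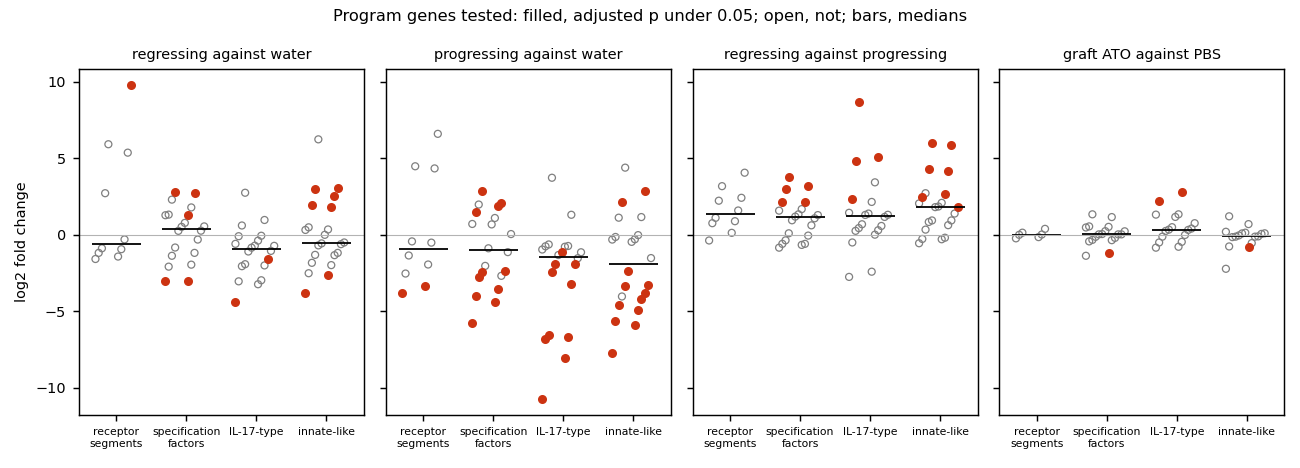
Fitted log2 fold change of each tested gene of the 4 lists in each comparison; filled points have an edgeR adjusted p under 0.05, open points do not, bars are medians and the horizontal spread within a list only separates points. Filled points lie mostly below 0 in progressing against water (29 of 35) and all above 0 in regressing against progressing (16).

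Among 10 receptor segments tested, 1 rose in regressing against water, where 3.13% of all genes rose. In progressing against water 2 fell, where 7.13% of all genes fell, and none passed in the other comparisons. Trdv5 was the one that rose. It had 0 counts in all 3 water tumours and 120, 104 and 118 counts in the regressing ones, at least 37.1-fold higher (adjusted p = 0.0409 by edgeR), besides 39 counts in progressing replicate 1 and 0 in the other 2 progressing tumours. The libraries that held it are the 4 with more than 13 counts of Trdc, with which Trdv5 shares bases. Leaving out any one of the 6 libraries ended the Trdv5 call, with edgeR adjusted p from 0.0665 to 0.131. Trdv5 had no count in the grafts. In progressing against water Trgc2 fell by 3.37 on the log2 scale (SE 0.93, adjusted p = 0.0413 by edgeR), a call lost without any one library except water replicate 2, with adjusted p up to 0.120. Trgv2, a gamma variable segment, fell by 3.81 in that comparison (SE 0.97, adjusted p = 0.0316 by edgeR), and its call was lost without the same 5 libraries (adjusted p from 0.0683 to 0.0826). Trgc1 had log2 fold changes of -0.30, -0.43 and 0.13 in regressing against water, progressing against water and regressing against progressing, none past the threshold, and the first 2 were 3.35 and 3.21 without water replicate 1. Trgc4 had -1.18, -1.94 and 0.76. Trgc3 had at most 22 counts in any library.

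Of the 20 specification factors, 4 rose and 7 fell in progressing against water, 3 rose and 2 fell in regressing against water, and 5 rose and none fell in regressing against progressing. The shares of all genes that rose and fell were 4.77% and 7.13%, 3.13% and 4.57%, and 6.45% and 6.18% in the same order. Bcl11b, Myb and Runx1 rose after ATO in both outcomes. Bcl11b, which commits precursors to the T lineage, had 99.8, 39.7 and 89.3 CPM in water, 274.0, 149.4 and 227.5 in progressing and 614.8, 593.5 and 385.5 in regressing tumours, with no overlap between the 3 groups. Its log2 fold change was 2.80 (SE 0.42, adjusted p = 0.00887 by edgeR) in regressing and 1.51 (SE 0.40, adjusted p = 0.0369 by edgeR) in progressing against water. The first was lost without regressing replicate 2 (adjusted p = 0.0523) and the second without any one library but progressing replicate 2 (0.0536 to 0.0929). Myb, a factor of immature thymocytes, rose by 2.71 and 2.09 (adjusted p = 0.0169 and 0.0251 by edgeR). These calls were lost without regressing replicates 1 or 2, and without progressing replicates 1 or 3 or water replicate 1, with adjusted p from 0.0555 to 0.0873. Sox4, known to act with Sox13 in IL-17-producing gamma-delta cells, rose by 2.89 in progressing against water (SE 0.69, adjusted p = 0.0240 by edgeR), a call lost without progressing replicate 2 (0.0546) or water replicate 1 (0.0556). Runx1, which acts throughout T-cell development, rose there by 1.88 (adjusted p = 0.00626 by edgeR). These rises stood beside the thymocyte marker sums given above, and the part of cell mixture in them was not tested.

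Sox5, Etv5, Egr3 and Id3 were among the factors that fell in progressing tumours. Sox5, the partner of Sox13, had 11.4, 10.8 and 32.2 CPM in water, 0.553, 0.591 and 1.47 in progressing and 1.42, 1.76 and 3.49 in regressing tumours. It fell by 4.37 on the log2 scale in progressing (adjusted p = 0.00722 by edgeR) and by 3.02 in regressing against water (SE 0.70, adjusted p = 0.0313 by edgeR), where the call was lost without any one of the regressing replicates or water replicate 3 (0.0588 to 0.157). Etv5, a factor of IL-17-type gamma-delta cells, fell by 3.99 and 3.04 (adjusted p = 0.00863 and 0.0285 by edgeR). The second was lost without any one of the regressing replicates or water replicate 3 (0.0712 to 0.143). Egr3, a factor switched on by receptor signalling, fell by 5.74 in progressing against water (adjusted p = 0.00621 by edgeR), and Id3, which it turns on in gamma-delta precursors, fell by 2.42 (SE 0.58, adjusted p = 0.0255). The Id3 call was lost without water replicate 1 (0.0693) or 3 (0.0550). In regressing against progressing Id3 had a log2 fold change of 1.58 (SE 0.57, adjusted p = 0.0874 by edgeR) and Egr1, Egr2, Egr3, Ikzf2 and Tox were the 5 of the list that rose.

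Of the 20 IL-17-type genes tested, 10 fell and none rose in progressing against water, where 7.13% of all genes fell and 4.77% rose. Dendritic cell markers moved the same way between these groups: the 6 of them summed to 66.0 to 132 CPM in water, 5.60 to 21.5 in progressing and 44.5 to 87.1 in regressing tumours, and their part in the result was not tested. Ccr6, a chemokine receptor of IL-17-producing cells, had 603, 27 and 36 counts in water and 0 in all 3 progressing tumours, at least 65.5-fold lower (adjusted p = 0.0145 by edgeR). B-cell marker sums were also lower in progressing tumours, at 107 to 162 CPM against 996 to 7570 in water. Within the water group Fcer2a, Ighd and Cr2 of that list were highest in replicate 1, as was Ccr6, and the others in replicate 2. The part of B cells in the level of Ccr6 was not tested. Cxcr6, a homing receptor of innate-like T cells, had 66.7, 4.12 and 238.6 CPM in water and 0.246, 0.338 and 0.586 in progressing tumours, and fell by 8.03 on the log2 scale (SE 1.37, adjusted p = 0.00693 by edgeR). Il18r1, a chain of the IL-18 receptor, had 45.0, 49.3 and 114.0 CPM in water, 0.185, 0.928 and 0.733 in progressing and 21.3, 6.27 and 24.4 in regressing tumours. It fell by 6.83 in progressing against water (SE 0.80, adjusted p = 0.00157 by edgeR) and rose by 4.83 in regressing against progressing (SE 0.74, adjusted p = 0.00924 by edgeR). Neither Il18r1 call was lost when any 1 library was left out. Il7r, the receptor for the survival cytokine IL-7, had 932.7, 14.0 and 552.7 CPM in water and 9.78, 2.19 and 2.71 in progressing ones (a log2 difference of -6.66, SE 1.28, adjusted p = 0.0111 by edgeR). That call was lost without progressing replicate 3 (0.0520).

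Ccr2, a chemokine receptor that monocytes and macrophages carry as well, fell by 6.54 on the log2 scale in progressing (SE 1.27, adjusted p = 0.0113 by edgeR) and by 4.39 in regressing against water (SE 1.14, adjusted p = 0.0437 by edgeR), the latter lost without any one library except water replicate 2 (0.0666 to 0.169). Cd44, an adhesion receptor of activated and memory T cells, fell by 1.61 in regressing against water (SE 0.30, adjusted p = 0.0161 by edgeR), a call lost without regressing replicate 1 (0.0843) or 2 (0.109). Water replicate 2 was low for Il7r, Ccr2 and Cxcr6, as it was for Sox13, Zbtb16, Maf and Il23r. In regressing against progressing, where 6.45% of all genes rose, 4 of the 20 rose: Ahr, Ccr6, Cxcr6 and Il18r1. Ccr6 was at least 15.8-fold higher (adjusted p = 0.0315 by edgeR) and Cxcr6 higher by 5.06 on the log2 scale (SE 1.24, adjusted p = 0.0292 by edgeR), and both calls were lost in every fit that left out 1 library (adjusted p from 0.0597 to 0.0886).

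Rora, a nuclear receptor that promotes IL-17 expression, had log2 fold changes of -1.09, -1.53 and 0.44 in regressing against water, progressing against water and regressing against progressing, none past the threshold. In progressing against water it passed without water replicate 2 (-2.01, adjusted p = 0.0392 by edgeR). Il17f, the cytokine encoded beside Il17a, had 2.32, 0.458 and 0.984 CPM in water, 0.615, 44.3 and 5.42 in progressing and 6.79, 0.423 and 0.197 in regressing tumours. Its log2 fold change of 3.73 in progressing against water (SE 1.58, adjusted p = 0.148 by edgeR) passed with DESeq2 (3.70, adjusted p = 0.0241), and was 1.30 without progressing replicate 2. Progressing replicate 2 held Il17f at 525 counts with no count of Il17a. That tumour also had 375.8 CPM of 5830411N06Rik (Scart2), the scavenger receptor related to SCART1, and the highest Cd163l1 of its group, at 147.6 CPM.

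**Figure D4:**
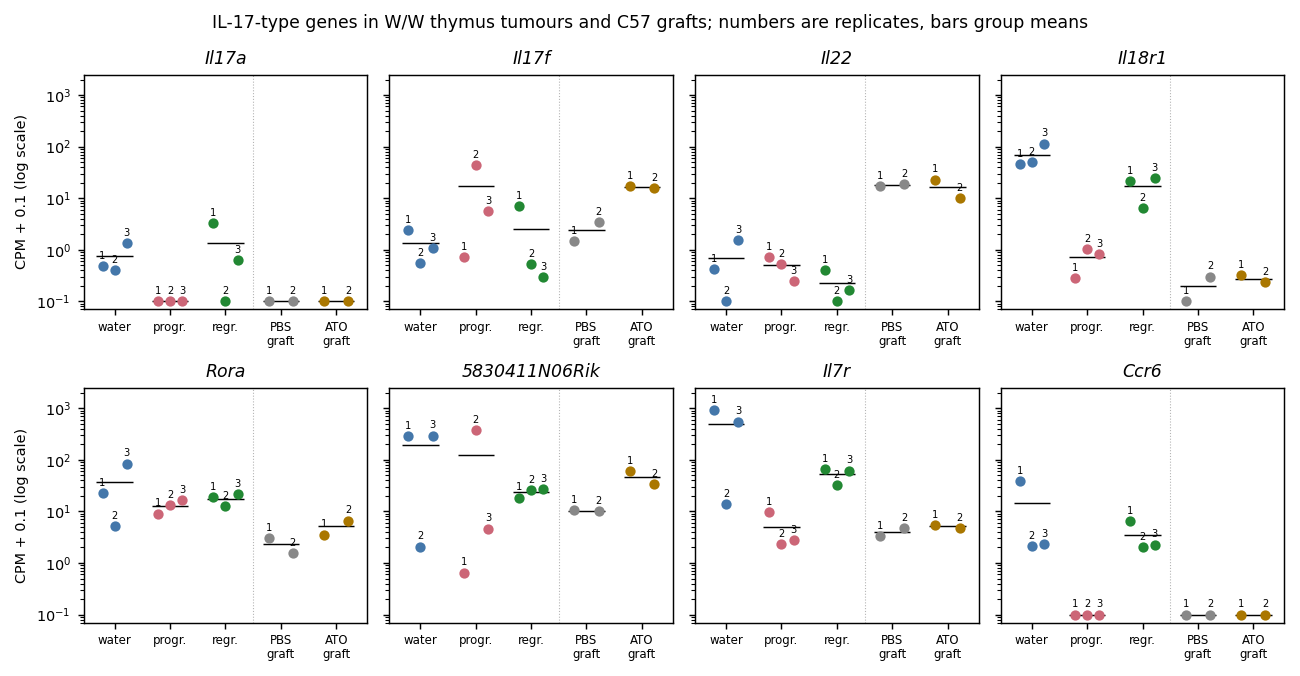
IL-17-type genes in every library, as CPM + 0.1 on a log axis; points are libraries, small numbers are replicates and bars are group means (n = 3 in W/W groups, n = 2 in graft groups). Il17a has no counts in progressing tumours or grafts, Il17f stands at 44.3 CPM in progressing replicate 2 and at 16.9 and 15.8 CPM in the ATO grafts, and Ccr6 has no counts in any progressing tumour or graft.

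In the grafts 2 of 17 IL-17-type genes tested rose after ATO, or 11.8%, and 7.37% of all genes did, so the count is given as no result about the list. Il17f had 1.38 and 3.29 CPM after PBS and 16.9 and 15.8 CPM after ATO, a rise of 2.80 on the log2 scale (SE 0.45, adjusted p = 0.00692 by edgeR). 5830411N06Rik had 10.4 and 10.1 CPM after PBS and 60.1 and 34.1 CPM after ATO, a rise of 2.20 (SE 0.31, adjusted p = 0.00404 by edgeR). Both passed in each of the 4 fits that left out 1 library. Cd163l1, the scavenger receptor among the 8, was also higher in both ATO grafts than in either PBS graft. Il22, another cytokine of this cell type, had 17.2 and 18.6 CPM after PBS and 22.9 and 10.0 CPM after ATO. Rora had 1.17 (SE 0.53, adjusted p = 0.152 by edgeR), and 1.55 with an adjusted p = 0.0311 by edgeR without ATO replicate 1. Of the other lists, Id2, an inhibitor of E-protein factors, fell by 1.17 (SE 0.32, adjusted p = 0.0360 by edgeR), and not past the threshold without ATO replicate 2 (0.0716) or PBS replicate 2 (0.151). Sh2d1a, the adaptor SAP that innate-like T cells need, fell by 0.77 (SE 0.20, adjusted p = 0.0306 by edgeR), a call lost without ATO replicate 2, PBS replicate 1 or PBS replicate 2 (0.0658 to 0.107). Beside these changes the summed level of 6 skeletal muscle markers was 37.9 to 226 CPM after PBS and 332 to 333 after ATO, and the summed natural killer cell markers were 244 to 466 and 107 to 186 CPM. Klra8, Klre1 and Ncr1 of the natural killer cell list had no count in either PBS graft, and Ncr1 had none in either ATO graft. That sum thus does not rest on the whole list. The part of muscle and of natural killer cells in the graft results was not tested.

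Of the 22 innate-like T-cell genes tested, 10 fell and 2 rose in progressing against water, beside 7.13% and 4.77% of all genes and beside the dendritic cell marker sums of 66.0 to 132 CPM in water and 5.60 to 21.5 in progressing tumours, whose part was not tested. Eomes, a factor of memory and natural killer cells, had 7.59, 53.1 and 35.2 CPM in water, 1.05, 0.169 and 0.366 in progressing and 1.36, 0.564 and 5.07 in regressing tumours. It fell by 5.87 on the log2 scale in progressing (SE 1.11, adjusted p = 0.0105 by edgeR) and by 3.77 in regressing against water (SE 0.99, adjusted p = 0.0451 by edgeR). The latter was lost without regressing replicates 1 or 2 or water replicates 2 or 3 (0.0700 to 0.175). Tbx21, which drives interferon-gamma, fell by 3.37 in progressing against water (SE 0.77, adjusted p = 0.0209 by edgeR), a call lost without progressing replicate 1 (0.0551) or 2 (0.0575). The highest Eomes and Tbx21 were both in water replicate 2, at 53.1 and 32.2 CPM. That library had the natural killer cell marker sum of 623 CPM against 17.3 and 10.9 in water replicates 1 and 3. Gzma alone gave 607.8 CPM of it, while Ncr1 and Klra8 had no count there, so the sum rests on a single gene. Cd160, a receptor of natural killer and intraepithelial T cells, fell by 2.65 in regressing against water (SE 0.71, adjusted p = 0.0477 by edgeR), a call lost without any one library except water replicate 3 (0.0520 to 0.192).

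Mr1, which presents vitamin metabolites to innate-like T cells, had 12.2, 14.6 and 17.2 CPM in water, 84.1, 44.0 and 66.8 in progressing and 142.1, 156.5 and 75.5 in regressing tumours. It rose by 3.08 in regressing (SE 0.38, adjusted p = 0.00391 by edgeR) and 2.15 in progressing against water (SE 0.37, adjusted p = 0.00724 by edgeR), and kept both calls when any 1 library was left out. Slamf1, a receptor that guides natural killer T-cell development, rose by 2.97 in regressing against water (SE 0.63, adjusted p = 0.0240 by edgeR), a call lost without regressing replicates 1 or 2 or water replicates 2 or 3 (0.0519 to 0.118). Il12rb2, a chain of the IL-12 receptor, rose by 2.56 in regressing (SE 0.59, adjusted p = 0.0302 by edgeR) and by 2.85 in progressing against water (SE 0.59, adjusted p = 0.0143 by edgeR). The first was lost without any one library except water replicate 2 (0.0619 to 0.134), the second without progressing replicate 3 (0.0517). In regressing against progressing, Klrk1, which encodes the activating receptor NKG2D, had 12.5, 8.60 and 11.9 CPM in regressing and 0.308, 0.844 and 0.660 in progressing tumours, a rise of 4.18 (SE 0.61, adjusted p = 0.00924 by edgeR). Klrb1c, the NK1.1 receptor, was at least 23.5-fold higher (adjusted p = 0.0110 by edgeR), and Xcl1, a chemokine, at least 7.72-fold higher (adjusted p = 0.0342 by edgeR). The first 2 kept their calls when any 1 library was left out, and the call for Xcl1 was lost in all such fits but the one without progressing replicate 2 (0.0656 to 0.0973).

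The genes nearest to each member in pattern over the 9 W/W libraries were sought among 16495 genes, by the same mean absolute difference of centred log2(CPM + 1). For Trdc they were Snhg11 (1.17), Pth (1.19) and H2-Q2 (1.24), and for Cd163l1 Crtam was nearest (1.31), so no gene came within 1.17 log2 units of either on average. Blk was nearest to Cd7 (0.64), Ltb (0.76) and Il18r1 (0.82), genes of lymphocytes. Maf was nearest to Xaf1 (0.22), Rtp4 (0.28) and Gm20559 (0.31). Zbtb16 was nearest to E330021D16Rik and Itgb3 (both 0.59), and Il23r to Gm26614 (0.51), Psd2 (0.56) and Tnf (0.57). Sox13 (nearest Strc, 0.23) and Il17a (nearest Marveld3, 0.29) vary little on this scale, with a mean absolute deviation of 0.97 and 0.50 of their own, so a small distance says less for them. No member was among the 3 nearest genes of another member. Il17a could not be, since its W/W mean of 0.622 CPM is below the 1 CPM required of the genes searched.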

How the data were processed

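RNA was measured in 15 samples, of which 9 W/W thymus tumours and 4 C57 grafts were used; the 2 U937 libraries, human cells, were not analysed here. Per the labels' protocols TRIzol was used to extract RNA and a SMARTer kit to make libraries. The same text holds a passage on cell culture that does not describe tissue. FastQC 0.10.1, cutadapt 1.9.1 and HISAT2 2.0.1 with GRCm38 are named per the submitters' processing notes. How reads were counted, whether by strand, and with which annotation is not given in the sources used here. The authors deposited raw counts per gene and the exonic length of each gene, in 1 table per system. Of the genes of the W/W table, 98.9% have their GENCODE vM21 (GRCm38) coordinates. Of those in the C57 table only 2.60% do, so that table uses another build and none of its coordinates are given. No sample column was left unmapped (0).

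The test was run in edgeR 4.0.16 (R 4.3.3, filterByExpr, TMM, quasi-likelihood test, Benjamini-Hochberg adjustment over all genes tested, threshold 0.05), the 9 W/W libraries in one fit of 3 groups and the 4 grafts in another. CPM use the TMM-scaled library size. A group with 3 counts or fewer in every library was taken as at the floor, and folds against it are lower bounds. Floors describe counting error alone, because there were no molecular identifiers and reads may be copies of one molecule. The method was tested on simulated data. The members, the 4 lists, the marker lists and the tests were chosen with earlier results of these data known. Program genes named are, per comparison, up to 6 of the largest rises and 6 of the largest falls among genes past the threshold with a mean of at least 1 CPM, besides Il17f, Rora, Tbx21, Id3, the gamma constant genes and 1 gene that is not reported here. Trgv2, Egr3, Runx1, Il22, the values of Sox5 and Etv5 in progressing against water and the genes listed without values were added after their values were seen. For each member the 3 genes nearest in centred log2(CPM + 1), with pseudocount 1, were sought. DESeq2 1.42.0, other size factors, no filter, a replicate block and leaving out each library were tried as alternatives. Promoter sequences are from RefSeq (GRCm38.p6).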

Additional observations from a re-analysis of the deposited data

Results flagged for a closer look

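Some genes had opposite directions in W/W tumours and grafts, with no overlap between the groups on either side. These differences between the systems were not tested, and the tables were normalized separately. With only 2 libraries in each graft group, groups can easily fail to overlap by sampling alone. The share of all genes that meet this rule was not counted, so nothing is read from the lack of overlap. Cd163l1 had a log2 fold change of -6.34 in regressing against water and 1.95 in grafts after ATO. Ccr2 had -6.54 in progressing against water and 0.50 in grafts. Etv5 had -3.04 in regressing and -3.99 in progressing against water, and 0.55 in grafts. Cd44 had -1.61 in regressing and -1.11 in progressing against water, and 0.76 in grafts. Il7r had -6.66 in progressing against water and 0.34 in grafts. The graft values of Ccr2, Etv5, Cd44 and Il7r did not pass edgeR's test. The graft value of Cd163l1, which was selected on its levels and is given as a description, was 0.68 without ATO replicate 1.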

How the results depend on the processing

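Of the program genes named with a fold change by the naming rule, none that passed the threshold changed direction under any alternative run for it, and the cause of the shifts below was not tested. With DESeq2 the genes called numbered 3354 in regressing against water, 3733 in progressing against water and 4121 in regressing against progressing (1396, 2157 and 2289 with edgeR), and with no filter 2689, 3594 and 3621, and 3274 in the grafts (2157). Program genes called were 27, 28 and 8 with DESeq2 in regressing against water, regressing against progressing and the grafts (15, 16 and 4 with edgeR), and 31, 33 and 9 with no filter. Leaving out 1 library gave 60 to 1190 genes called in regressing against water, 907 to 2557 in progressing against water, 177 to 2000 in regressing against progressing and 685 to 2420 in the grafts, and 1 to 13, 19 to 37, 3 to 14 and 3 to 12 program genes.

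Same-numbered W/W libraries deviated from their group means with correlations of -0.124 to 0.153, so the numbers do not pair the samples. With a replicate block the genes called were 1405 in progressing against water and 1350 in the grafts, and the calls of Cd160, Eomes, Etv5 and Il12rb2 (regressing against water), Trgc2 (progressing against water), Xcl1 (regressing against progressing) and Id2 (grafts) were lost. In the grafts the correlation was -0.117, and a block with the numbers crossed, chosen after seeing the data, gave 3298 genes and 9 program genes called.

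Of the members' fold changes, 24 alternatives moved the value by more than the spread between replicates, most by leaving out 1 library, and 231 did not. Genes with few counts, Il17a above all, are limited by depth.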
